A study of Saccharomyces cerevisiae with 12 samples.

Results

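Transcripts of 10 genes of endoplasmic reticulum-associated degradation (ERAD) were followed in budding yeast with and without the mitochondrial lipid transfer protein Ups1 and with and without tunicamycin. The genes are *HRD1* (YOL013C), *HRD3* (YLR207W), *USA1* (YML029W), *DER1* (YBR201W), *YOS9* (YDR057W), *MNL1* (YHR204W, also called *HTM1*), *UBC7* (YMR022W), *CUE1* (YMR264W), *DFM1* (YDR411C) and *UBX2* (YML013W). They were chosen by their systematic names under a rule that uses no measured value, although earlier results of these data were known when the set was proposed, and they are 10 of the 7110 features of the count table. All 10 passed the filter on low counts in each comparison. The wild-type and *ups1*Δ strains are labelled S288c, grew to log phase in synthetic complete glucose medium at 30 °C, and were sampled untreated or after 3 h in tunicamycin at 1 µg/ml. Each of the 4 groups had 3 libraries of poly(A)-selected RNA from cultures described as biological triplicates. The labels do not say whether untreated cultures received the solvent of tunicamycin.

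ERAD removes proteins that fail to fold in the endoplasmic reticulum (ER). A misfolded protein is recognized in the ER lumen or membrane, moved across the membrane, tagged with ubiquitin, extracted by the Cdc48 ATPase and degraded by the proteasome. In yeast the ligase Hrd1 handles lumenal and membrane substrates and the ligase Doa10, encoded by *SSM4*, handles substrates with cytosolic lesions. Tunicamycin blocks N-linked glycosylation, so that unfolded proteins accumulate in the ER and the unfolded protein response (UPR), which runs through Ire1 and the transcription factor Hac1, is switched on. Several ERAD genes are known UPR targets in yeast.

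Libraries held 4650828 to 7101983 counts in all. Levels are given in CPM, counts scaled to a common total after each library size was multiplied by its TMM factor, and 3 counts corresponded to at most 0.696 CPM. *UPS1* had 185 to 427 counts in each wild-type library and 0 to 2 in each *ups1*Δ library. The 2 genotypes also differed in mating type. The summed level of 7 **a**-specific genes was 3257.52 to 3522.69 CPM in untreated wild-type and 43.6 to 52.2 CPM in untreated *ups1*Δ libraries, and that of 4 α-specific genes was 59.6 to 61.7 and 3194.12 to 3971.88 CPM. The marker genes *LYS2* and *MET17* had no counts in wild-type libraries, so strain background and the loss of Ups1 cannot be told apart in any difference between genotypes. Replicate 3 of untreated *ups1*Δ and replicate 2 of treated wild-type cells stood farthest from their group, with a median absolute log2 deviation of 0.180 and 0.172 against 0.0892 to 0.143 in the other libraries. The chaperone gene *KAR2*, the standard UPR target, reached 5199.73 CPM in that treated wild-type library and 3224.00 and 2747.22 CPM in the others of its group.

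All 10 genes have a single coding exon in the R64 assembly, and none overlaps another gene of its annotation. The coding sequences lie at chrXV:301380-303035 (*HRD1*, minus strand), chrXII:556788-559289 (*HRD3*), chrXIII:217362-219878 (*USA1*), chrII:623576-624211 (*DER1*), chrIV:565927-567555 (*YOS9*), chrVIII:506319-508709 (*MNL1*), chrXIII:318680-319177 (*UBC7*), chrXIII:795805-796416 (*CUE1*), chrIV:1293369-1294394 (*DFM1*, minus strand) and chrXIII:244149-245903 (*UBX2*). The count table also holds the features YOL013W-A and YOL013W-B, named after the *HRD1* locus but without a place in that annotation, with 2 to 28 and 0 to 2 counts per library. The 500 bases before each start codon were searched on both strands for motifs linked to the UPR in yeast and for a proteasome gene element. The core of the *KAR2* element, CAGCGTG, was in none of the 10 windows and in 2.317% of 6000 windows of this length. Its looser form CANCNTG, which includes every CAGCGTG, was in 7 of 10 windows, but also in 45.517% of all windows. The core of another UPR element, TACGTG, was in 2 of 10 windows, those of *HRD1* and *YOS9*, and in 13.05% of all windows. The sequence GGTGGCAAA, a proteasome gene element, was in 0 of 10 and in 1.65% of all. *DER1* and *DFM1* matched none of these letters. The windows around the *KAR2* element, around both TACGTG matches and around a looser match before *USA1*, the gene with the largest rise in wild-type cells, are shown to set the members' upstream sequences beside the reference element, with the matched letters in capitals (R64, read 5′ to 3′ on the coding strand of the gene):
*KAR2*, chrX:381157-381183, plus strand: aggaactggaCAGCGTGtcgaaaaagt
*HRD1*, chrXV:303186-303211, minus strand: taaatttccaTACGTGccgacaggac
*YOS9*, chrIV:565789-565814, plus strand, motif on the opposite strand: agacccagcgCACGTAtgcaaaaaaa
*USA1*, chrXIII:217263-217289, plus strand, motif on the opposite strand: tattcaattgCAAGGTGacgtacttca
The match starts 160 bases before the start codon in *KAR2*, 166 in *HRD1*, 128 in *YOS9* and 89 in *USA1*. These are matches of letters, and binding of a factor was not measured here.

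Tunicamycin raised most ERAD transcripts in wild-type cells. *USA1*, *DFM1*, *DER1*, *HRD1*, *HRD3*, *UBX2*, *YOS9* and *UBC7* rose between 1.36-fold and 2.65-fold, *MNL1* fell to 0.846 of its untreated level, and *CUE1* did not pass the test. Thus 8 of 10 genes were called higher by edgeR (adjusted p under 0.05) where 39.4% of the 5785 genes tested were, and 1 was called lower where 37.0% were. The median log2 fold change of the 10 genes was 0.73 and that of all genes was 0.052. A scaling by library size alone, without TMM factors, moved the median of all genes to 0.57 and that of the 10 genes to 1.24. All 10 genes were then called higher, as were 3491 of all 5785 genes tested. Under both scalings 8 of the 10 genes were above the median of all genes. A change of scaling shifts all genes nearly alike, so this count could hardly change and does not test the scaling. In bulk cultures a change in the share of cells with a transcript and a change in its amount per cell cannot be told apart.

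In *ups1*Δ cells the same treatment raised 5 of the genes. *DER1*, *DFM1*, *USA1*, *HRD1* and *HRD3* rose between 1.36-fold and 1.91-fold, none fell, and *UBC7*, *UBX2*, *YOS9*, *MNL1* and *CUE1* did not pass the test. The count of 5 higher stood against 15.2% of the 5700 genes tested and the count of 0 lower against 11.9%, with 0 lower also at an unadjusted p under 0.05 and with DESeq2. The median log2 fold change was 0.32 for the 10 genes and 0.0073 for all genes. Without replicate 3 of untreated *ups1*Δ cells 7 genes were called higher, *UBC7* at a log2 fold change of 0.33 (adjusted p = 0.00810) and *UBX2* at 0.22 (adjusted p = 0.0365) being added. Calls over all genes rose as well, from 866 of 5700 to 1040 of 5727 higher.

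The difference between the 2 responses was tested as an interaction over all 12 libraries. *USA1*, *YOS9*, *UBX2*, *DFM1* and *HRD3* had a smaller response in *ups1*Δ than in wild-type cells, and no gene was called in the other direction. The 5 lower calls stood against 33.2% of the 5828 genes tested, and the 0 higher calls, with 1 at an unadjusted p under 0.05 and 0 with DESeq2, against 32.9%. The median difference was −0.37 for the 10 genes and −0.035 for all genes. For the 10 genes it was −0.23 without replicate 2 of treated wild-type cells and −0.19 when replicate 3 of untreated *ups1*Δ cells was left out as well. The calls for *HRD3* and *DFM1* were lost without replicate 3 of untreated *ups1*Δ cells (adjusted p = 0.0534 and 0.0895), without replicate 2 of treated wild-type cells (0.0567 and 0.0510) and with DESeq2 (0.0592 and 0.0673), while those for *USA1*, *YOS9* and *UBX2* held in each of these. Both were also lost without replicate 2 of untreated wild-type or replicate 1 of treated *ups1*Δ cells, and each was lost in 7 of the 12 fits that left out 1 library. *KAR2* went the other way, with a log2 fold change of 2.003 ± 0.23 (SE) in wild-type and 2.87 ± 0.090 in *ups1*Δ cells and a difference of 0.84 (adjusted p = 0.00965). That difference went with a lower untreated *KAR2* level in *ups1*Δ cells (log2 −0.89). The treated genotypes differed by −0.080, with a 95% interval from −0.59 to 0.43.

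**Figure D1:**
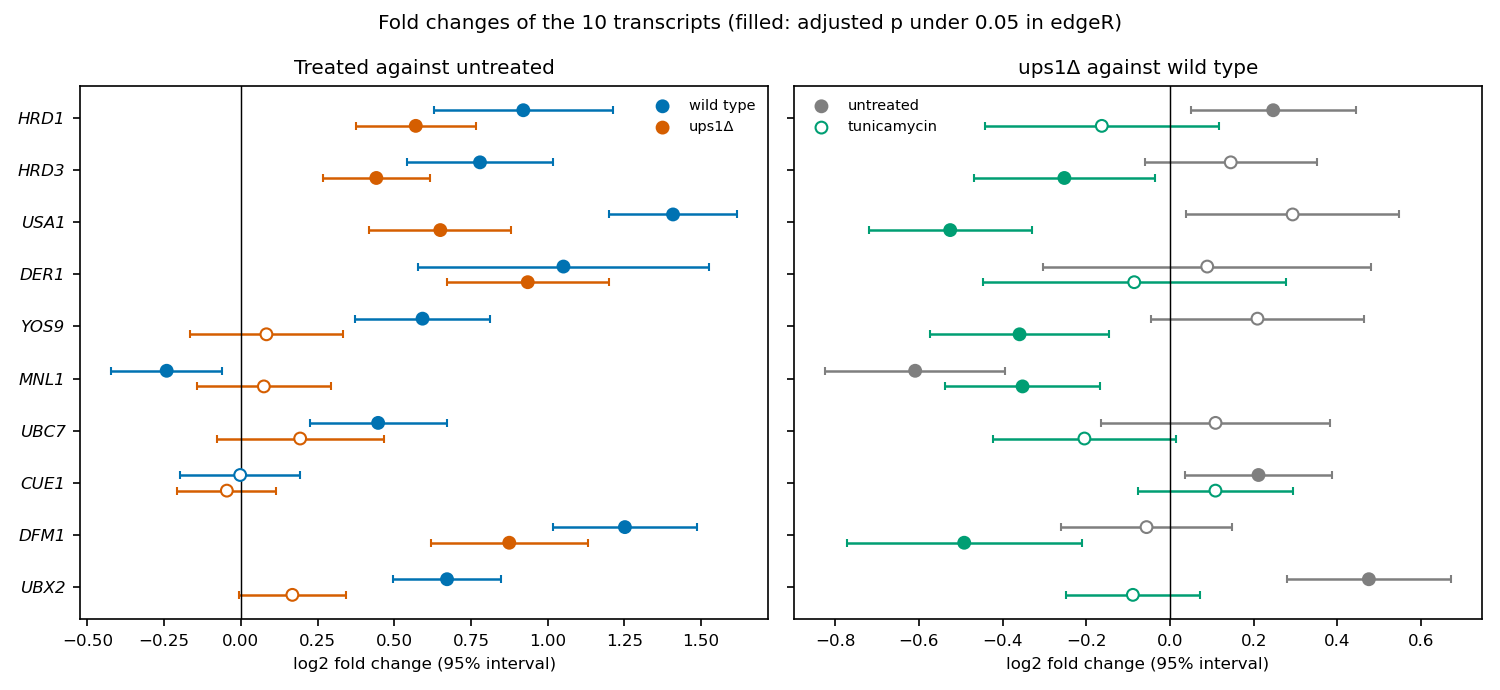
Log2 fold changes of the 10 ERAD transcripts with 95% intervals, with tunicamycin against untreated in each genotype (left) and *ups1*Δ against wild type in each condition (right). Filled points passed an adjusted p of 0.05 in edgeR, 9 in wild-type and 5 in *ups1*Δ cells on the left. Among all genes tested, 4417 of 5785 passed in wild-type and 1546 of 5700 in *ups1*Δ cells. *USA1* had the largest rise in wild-type cells (1.41).

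The scaffold of the Hrd1 ligase is formed by Hrd1 itself, a membrane protein with a RING domain that passes ubiquitin to substrates, by Hrd3, which receives substrates in the lumen and stabilizes Hrd1, and by Usa1, which links Hrd1 to Der1. Among the 10 genes *USA1* had the largest rise in wild-type cells. It measured 64.9, 55.9 and 65.2 CPM in untreated wild-type, 70.0, 68.6 and 84.5 in untreated *ups1*Δ, 171, 174 and 156 in treated wild-type and 106, 123 and 119 in treated *ups1*Δ libraries. No group overlapped another, and the order was untreated wild-type, untreated *ups1*Δ, treated *ups1*Δ and treated wild-type. The rise was 1.41 ± 0.093 on the log2 scale in wild-type cells (SE, adjusted p = 5.7e-07) and 0.65 ± 0.10 in *ups1*Δ cells (adjusted p = 0.00231). Their difference was −0.79 ± 0.14 (adjusted p = 0.000181). Treated *ups1*Δ cells had 0.695 of the treated wild-type level (adjusted p = 0.000430). In untreated cells the difference of 0.29 missed the threshold (adjusted p = 0.0536).

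*HRD1* and *HRD3* followed a similar course at smaller size. *HRD1* measured 72.2, 70.9 and 75.2 CPM in untreated wild-type, 79.1, 82.3 and 92.1 in untreated *ups1*Δ, 127, 170.1 and 122 in treated wild-type and 121, 134 and 119 in treated *ups1*Δ libraries. The treated groups overlapped each other and stood above both untreated groups. *HRD1* rose by 0.92 ± 0.13 (log2, SE) in wild-type and by 0.57 ± 0.086 in *ups1*Δ cells, and the difference of −0.38 missed the threshold (adjusted p = 0.0524). Untreated *ups1*Δ cells had 1.19 times the wild-type level (adjusted p = 0.0397), a call that was lost with DESeq2 (adjusted p = 0.123) and without replicate 3 of untreated *ups1*Δ cells (adjusted p = 0.0869). *HRD3* measured 90.1, 82.8 and 96.6 CPM in untreated wild-type and 89.0, 102 and 101 in untreated *ups1*Δ libraries, which overlapped. With tunicamycin it measured 145, 178 and 147 CPM in wild-type and 128, 138 and 128 in *ups1*Δ libraries, which did not overlap. Its level in treated *ups1*Δ cells was 0.839 of that in treated wild-type cells (adjusted p = 0.0408), and without replicate 2 of treated wild-type cells the log2 fold change was −0.15 (adjusted p = 0.103). Leaving out replicate 1, 2 or 3 of treated *ups1*Δ cells also ended this call (adjusted p = 0.153, 0.0840 and 0.143).

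*DER1* encodes a rhomboid-like membrane protein that, with Hrd1, forms the path by which lumenal substrates leave the ER. It had the lowest CPM of the 10 genes, with 36.5, 24.3 and 27.3 in untreated wild-type and 26.1, 31.3 and 34.4 in untreated *ups1*Δ libraries. It reached 55.5, 79.8 and 50.2 CPM in treated wild-type and 58.1, 61.3 and 55.03 CPM in treated *ups1*Δ libraries. The genotypes overlapped in both conditions, and every treated library was above every untreated one. The log2 fold change was 1.05 ± 0.21 in wild-type (adjusted p = 0.00137) and 0.94 ± 0.12 in *ups1*Δ cells (adjusted p = 0.000715). The difference of −0.14 had a 95% interval from −0.70 to 0.41, so that *DER1* did not separate the genotypes at this spread.

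*DFM1* encodes a relative of Der1 that acts in the removal of membrane proteins. It measured 110.3, 96.0 and 102 CPM in untreated wild-type and 92.9, 91.6 and 106 in untreated *ups1*Δ libraries. With tunicamycin it measured 275, 250.1 and 221 CPM in wild-type and 153, 173 and 204 in *ups1*Δ libraries. Untreated genotypes overlapped, and treated *ups1*Δ libraries lay between the untreated groups and treated wild-type cells. The rise was 2.38-fold in wild-type and 1.83-fold in *ups1*Δ cells, and treated *ups1*Δ cells had 0.711 of the treated wild-type level (adjusted p = 0.00594).

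Recognition of misfolded glycoproteins uses Mnl1, a mannosidase that trims the glycan of a protein that has failed to fold, and Yos9, a lectin that reads the trimmed glycan and is bound to Hrd3. With tunicamycin and TMM scaling these genes moved in different directions in wild-type cells, whereas in *ups1*Δ cells neither was called. Both were lower in treated *ups1*Δ than in treated wild-type cells. *YOS9* measured 49.8, 60.05 and 58.1 CPM in untreated wild-type, 64.5, 56.4 and 69.1 in untreated *ups1*Δ, 81.7, 90.7 and 84.7 in treated wild-type and 66.9, 73.0 and 59.98 in treated *ups1*Δ libraries. Only treated wild-type cells stood apart from all other groups. The log2 fold change with tunicamycin was 0.59 ± 0.098 in wild-type (adjusted p = 0.000320) and 0.083 ± 0.11 in *ups1*Δ cells (adjusted p = 0.605), and the difference was −0.54 ± 0.15 (adjusted p = 0.00540).

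*MNL1* was the only gene of the 10 that was called lower in *ups1*Δ than in wild-type cells in both conditions. It measured 106, 112 and 112 CPM in untreated wild-type, 75.7, 75.3 and 61.1 in untreated *ups1*Δ, 94.7, 88.2 and 100.5 in treated wild-type and 73.7, 73.3 and 75.2 in treated *ups1*Δ libraries. The *ups1*Δ groups overlapped each other and lay below both wild-type groups. Untreated *ups1*Δ cells had 0.656 of the wild-type level (log2 −0.61 ± 0.095, adjusted p = 0.00110) and treated *ups1*Δ cells 0.783 (adjusted p = 0.00372). In wild-type cells *MNL1* fell by 0.24 with tunicamycin (log2, adjusted p = 0.0194), whereas a scaling by library size alone gave 0.28. That call was lost without replicate 2 (adjusted p = 0.0606) or replicate 3 (adjusted p = 0.0690) of untreated wild-type cells. The difference between the responses was 0.29 (adjusted p = 0.0551).

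**Figure D2:**
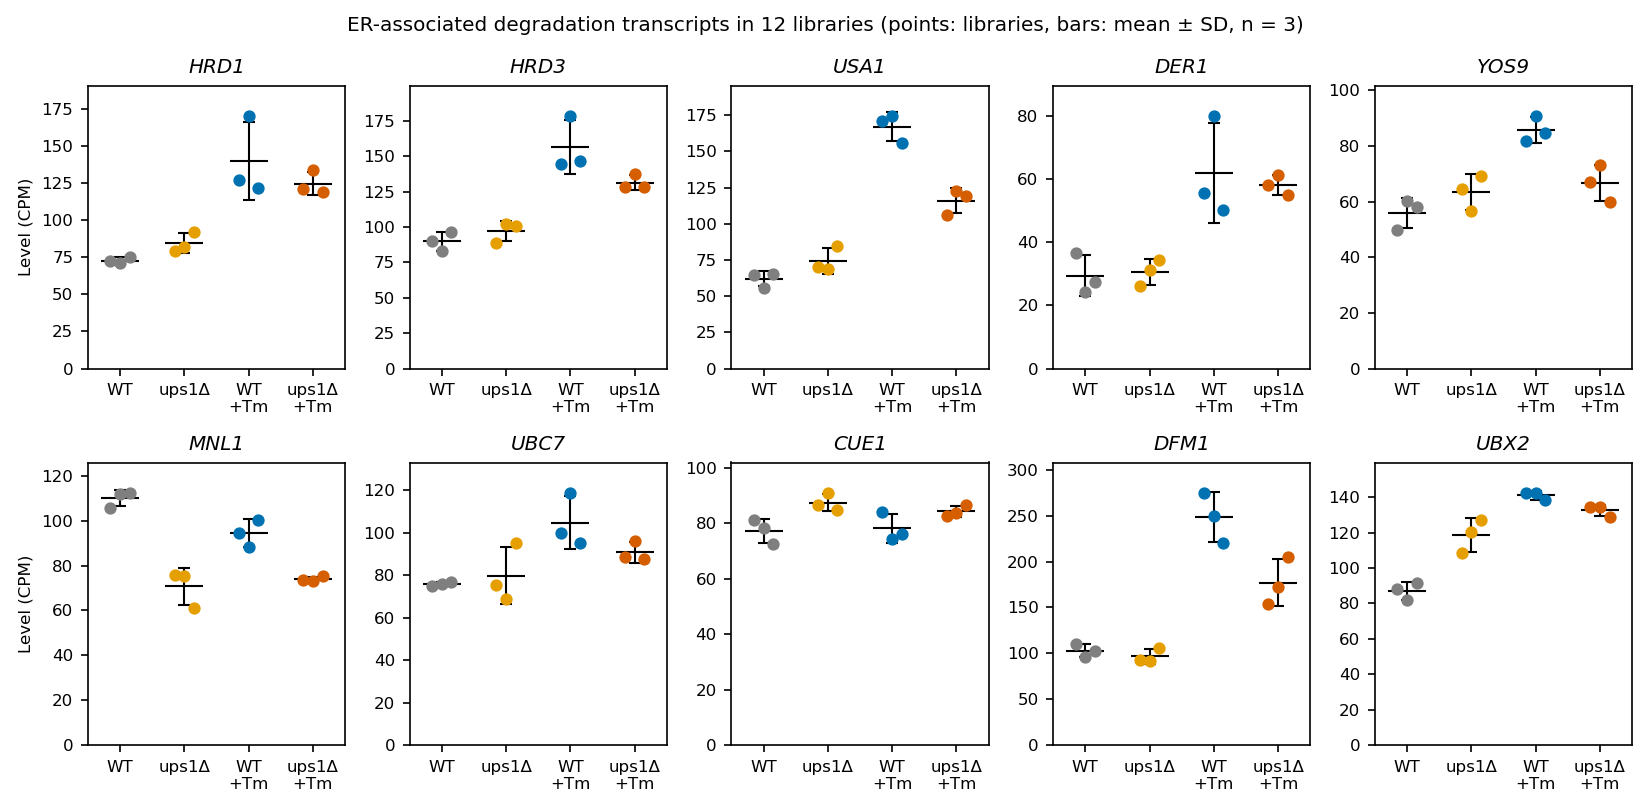
Level of each ERAD transcript in the 12 libraries, in CPM, with points for libraries and bars for mean and SD (n = 3 per group). Treated wild-type cells had the highest mean for 8 of the 10 genes, whereas *MNL1* was highest in untreated wild-type cells and *CUE1* groups lay close together, with means from 77.2 to 87.4 CPM.

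Ubc7 is the ubiquitin-conjugating enzyme of both the Hrd1 and the Doa10 pathway, and Cue1 anchors it to the ER membrane and activates it. In wild-type cells *UBC7* was called higher with tunicamycin and *CUE1* was not, and in *ups1*Δ cells neither was called. The genes were not tested against each other. *UBC7* measured 74.6, 75.6 and 76.6 CPM in untreated wild-type, 75.5, 68.8 and 94.97 in untreated *ups1*Δ, 99.8, 119 and 95.3 in treated wild-type and 88.4, 96.2 and 87.4 in treated *ups1*Δ libraries. It rose 1.36-fold in wild-type cells (adjusted p = 0.00221), while in *ups1*Δ cells the fold of 1.14 did not pass (adjusted p = 0.256) and the groups overlapped. The difference of −0.28 between the responses was not called either (adjusted p = 0.134). *CUE1* measured between 72.4 and 91.0 CPM in all 12 libraries. Its log2 fold change with tunicamycin was −0.0021 in wild-type cells, with a 95% interval from −0.20 to 0.19, and −0.046 in *ups1*Δ cells, with an interval from −0.21 to 0.12, although scaling by library size alone gave 0.52 in wild-type and 0.058 in *ups1*Δ cells. It was 1.16 times higher in untreated *ups1*Δ cells (adjusted p = 0.0471), and the call was lost with DESeq2 (adjusted p = 0.183).

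*UBX2* encodes the ER membrane protein that recruits Cdc48 to the ligases. It was the gene with the largest rise between untreated genotypes. It measured 87.9, 81.8 and 91.8 CPM in untreated wild-type, 108, 120.3 and 127 in untreated *ups1*Δ, 143, 142 and 138 in treated wild-type and 134, 135 and 129 in treated *ups1*Δ libraries. No group overlapped another. Untreated *ups1*Δ cells had 1.39 times the wild-type level (log2 0.48 ± 0.086, adjusted p = 0.00213), and 0.42 on the log2 scale without replicate 3 (adjusted p = 0.000603). Tunicamycin raised *UBX2* 1.59-fold in wild-type cells (adjusted p = 2.9e-05), and its change in the mutant was 0.17 ± 0.077 on the log2 scale (adjusted p = 0.135). The treated genotypes differed by −0.089, with a 95% interval from −0.25 to 0.071, so that the difference of −0.53 ± 0.11 between the responses (adjusted p = 0.000483) went with a higher untreated level in *ups1*Δ cells. The untreated wild-type libraries enter both comparisons.

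Between untreated genotypes, 3 of the 10 genes were called higher in *ups1*Δ cells (*UBX2*, *HRD1* and *CUE1*) where 26.5% of 5692 genes were, and 1 was called lower (*MNL1*) where 25.8% were. The share called higher is near that of all genes. *UBX2* alone was called higher with DESeq2 and without replicate 1, 2 or 3 of untreated wild-type cells, and without replicate 3 of untreated *ups1*Δ cells *UBX2* and *CUE1* were. The median log2 fold change was 0.18 for the 10 genes and 0.021 for all genes. *KAR2* was lower in untreated *ups1*Δ cells, at 466 to 500.2 CPM against 883 to 946 CPM (log2 −0.89 ± 0.066, adjusted p = 2.0e-05).

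With tunicamycin, *USA1*, *DFM1*, *YOS9*, *MNL1* and *HRD3* were lower in *ups1*Δ than in wild-type cells and no gene was higher. The 5 lower calls stood against 33.6% of 5771 genes and the 0 higher calls against 32.7%, with 0 higher also at an unadjusted p under 0.05 and with DESeq2. The median log2 fold change was −0.23 for the 10 genes and −0.026 for all genes. Scaling by library size alone gave 8 lower calls, against 2967 of all 5771 genes tested, and moved the median of all genes to −0.32. Without replicate 2 of treated wild-type cells 4 genes were lower, the median was −0.12, and *DER1* and *HRD1* turned to 0.14 and 0.0048. That library had the highest *HRD1*, *HRD3*, *USA1*, *DER1*, *YOS9* and *UBC7* levels and the highest *KAR2* level of its group. *KAR2* itself did not pass between treated genotypes (log2 −0.080, 95% interval from −0.59 to 0.43).

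Summed over the 10 genes, the level was 738 to 778 CPM in untreated wild-type, 768 to 855 in untreated *ups1*Δ, 1190 to 1367 in treated wild-type and 1014 to 1089 in treated *ups1*Δ libraries. The treated groups did not overlap each other or the untreated groups. Per kilobase of coding sequence, mean levels spread from 24.6 CPM for *USA1* to 152 for *UBC7* in untreated wild-type cells, a ratio of 6.17. *UBC7* ranked highest in every group but treated wild-type cells, where *DFM1* did, at 242 CPM per kilobase. The level of *USA1* relative to *HRD1*, both per kilobase, was 0.560 ± 0.038 (SD, n = 3) in untreated wild-type, 0.578 ± 0.028 in untreated *ups1*Δ, 0.800 ± 0.11 in treated wild-type and 0.613 ± 0.040 in treated *ups1*Δ cells. That of *UBC7* relative to *CUE1* was 1.21 ± 0.086, 1.13 ± 0.23, 1.65 ± 0.27 and 1.32 ± 0.086 in the same order. Both ratios had their highest mean in treated wild-type cells, which did not hold for the others computed. *DER1* relative to *HRD1* was highest in treated *ups1*Δ cells, at 1.21 ± 0.030 against 1.14 ± 0.075 in treated wild-type cells. *HRD3* and *YOS9* relative to *HRD1* were highest in untreated wild-type cells (0.816 ± 0.040 and 0.783 ± 0.079). In treated wild-type cells they were 0.747 ± 0.052 and 0.633 ± 0.084.

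**Figure D3:**
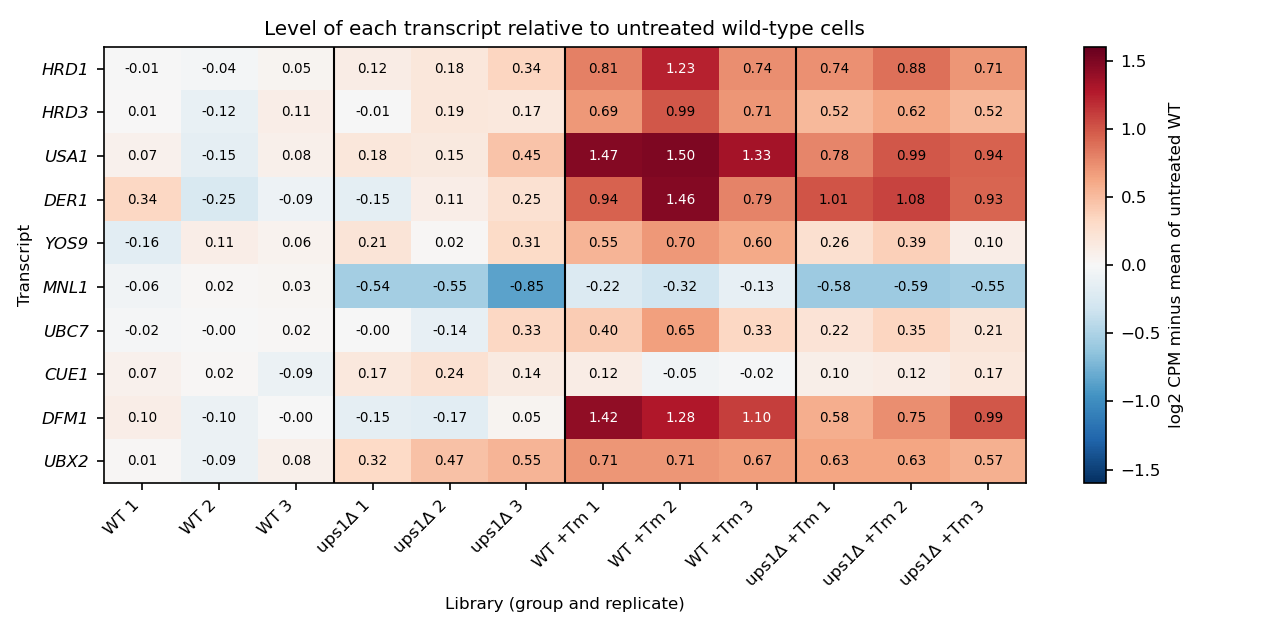
Log2 level of each ERAD transcript in each library minus its mean log2 level in untreated wild-type cells, with values printed in the cells. *USA1* lay between 1.33 and 1.496 in treated wild-type and between 0.78 and 0.99 in treated *ups1*Δ libraries, and *MNL1* was below 0 in all libraries of the other groups.

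Across the 12 libraries the Pearson correlation of log2 CPM between pairs of the genes ran from −0.70 (*CUE1* and *MNL1*) to 0.98 (*HRD1* and *HRD3*), with a median of 0.80 over the 45 pairs. The libraries share 4 groups, so these correlations describe mainly differences between groups. Correlation with the mean profile of the 10 genes was 0.99 for *USA1*, 0.86 to 0.98 for *YOS9*, *UBX2*, *UBC7*, *DER1*, *DFM1*, *HRD1* and *HRD3*, −0.11 for *CUE1* and −0.19 for *MNL1*. Each of the 10 genes is part of that profile, which raises its own correlation, whereas genes outside the set are not. Among 5818 other genes, the 5 most like the mean profile were *NCW2*, a cell wall protein gene, *SPG5*, *YPS1*, which encodes a cell surface aspartic protease, *YIL108W* and *FLC1*, with correlations of 0.99 each. *NCW2* averaged 78.5 CPM in untreated wild-type, 100.3 in untreated *ups1*Δ, 1574 in treated wild-type and 576 in treated *ups1*Δ cells. *FLC1* averaged 138, 196, 562 and 312 CPM in the same order.

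Other degradation genes were taken as a list of 20, covering the Doa10 and Asi ligases, further ubiquitin-conjugating enzymes, Cdc48 with its cofactors, shuttle factors and glycan-trimming enzymes. In wild-type cells 6 rose, 6 fell and 8 did not pass with tunicamycin, against 39.4% higher and 37.0% lower among all genes tested, and their median log2 fold change was 0.015. The largest rises were those of *ASI2*, a subunit of the inner nuclear membrane ligase (0.91 ± 0.089), *PNG1*, which encodes the peptide N-glycanase (0.66 ± 0.098), and *DOA1*, a Cdc48 cofactor gene (0.54 ± 0.092). The largest falls were those of *RAD23*, which encodes a shuttle factor for ubiquitinated proteins (−1.28 ± 0.14), *UBC1*, a ubiquitin-conjugating enzyme gene (−0.92 ± 0.082), and *SSM4* (−0.67 ± 0.085). The 20 genes were tested with TMM scaling only, and scaling by library size alone moved the median of all genes in this comparison from 0.052 to 0.57.

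In *ups1*Δ cells 1 of the 20 genes rose with tunicamycin, 2 fell and 17 did not pass, against 15.2% higher and 11.9% lower among all genes, with a median of −0.12. *VMS1*, a Cdc48 cofactor gene, rose by 0.31 ± 0.087, and *ASI2* (−0.43 ± 0.12) and *ROT2*, a glucosidase II gene (−0.22 ± 0.070), fell. The responses differed between genotypes for 14 of the 20, 6 of them by a higher value in *ups1*Δ cells and 8 by a lower one, with a median of −0.17. Among all genes 32.9% were called higher and 33.2% lower, so these shares are near the background. *RAD23* (1.11), *SSM4* (0.74) and *UBC1* (0.69) were the largest positive and *ASI2* (−1.37), *PNG1* (−0.85) and *ASI1* (−0.53) the largest negative differences. Accordingly, treated *ups1*Δ cells had more *RAD23*, *UBC1* and *UBC6*, another ubiquitin-conjugating enzyme gene (0.76, 0.74 and 0.60) and less *ASI2*, *PNG1* and *DOA1* (−1.11, −0.64 and −0.53) than treated wild-type cells, among 6 higher and 9 lower of the 20 (32.7% and 33.6% of all genes). Between untreated genotypes *OTU1* (0.55) and *NPL4* (0.24), both Cdc48 cofactor genes, were higher, *RAD23* (−0.31) and *SSM4* (−0.25) were lower, and 16 did not pass, where 26.5% of all genes were higher and 25.8% lower.

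**Figure D4:**
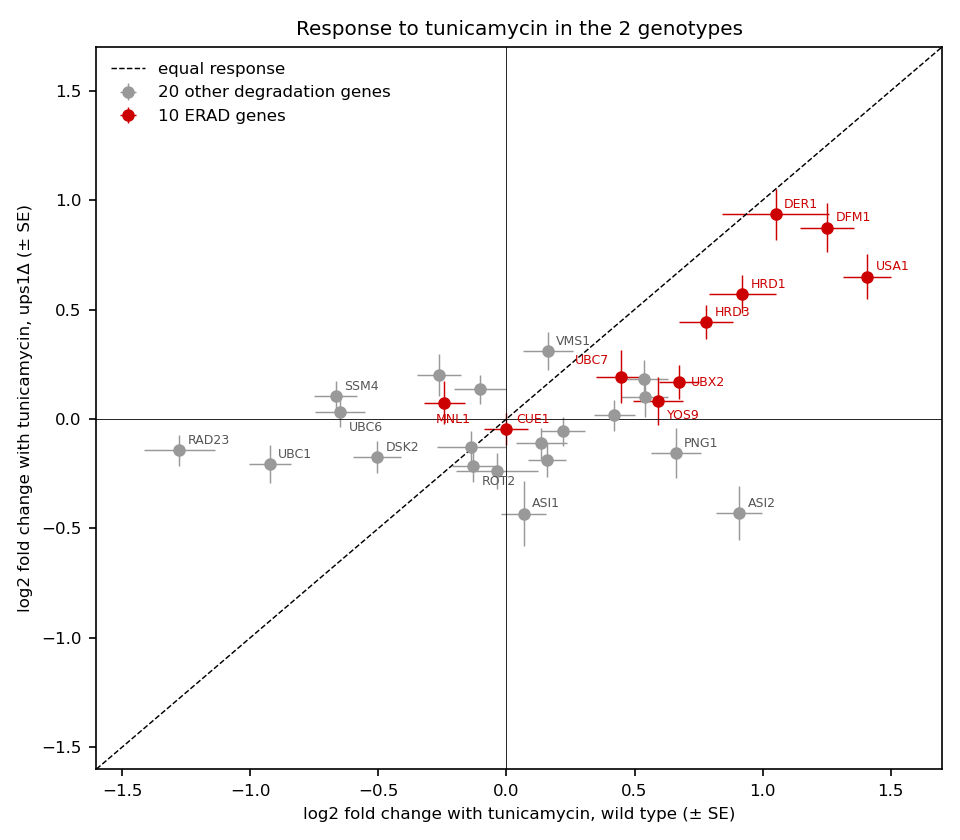
Log2 fold change with tunicamycin in *ups1*Δ cells against that in wild-type cells for the 10 ERAD genes (red) and 20 other degradation genes (grey), with bars for SE and a dashed line for equal responses. *USA1* lies at 1.41 and 0.65, *DER1* close to the line at 1.05 and 0.94, and *RAD23* and *ASI2* mark the ends of the grey points in wild-type cells at −1.28 and 0.91.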

How the data were processed

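The authors quantified stranded, paired-end reads with kallisto against sacCer3 and deposited expected counts per gene as whole numbers, without normalization. The authors also deposited tables of 4 pairwise DESeq2 comparisons (normalized counts, fold changes, p-values), which were not used here.

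The whole count table was tested in edgeR 4.0.16 (R 4.3.3), after filterByExpr and with TMM factors, by robust quasi-likelihood F tests, and p-values were adjusted by Benjamini-Hochberg over all genes tested, with a threshold of 0.05. Pairwise tests used 6 libraries and the interaction 12. The steps were tested on simulated data for tunicamycin in wild type and for the interaction. Few genes were changed there, in random directions, so the choice of scaling was not tested. CPM is relative to library size times TMM factor. Intervals are 95% intervals of the fit, and the limit of 3 counts covers counting error only. Names, coordinates and sequences came from RefSeq R64, the assembly of sacCer3, which named 6048 of 7110 features (270 had no counts).

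The members and lists were chosen with earlier results of these data known. Besides the members, the text names up to 3 rises and 3 falls of the other degradation genes in each comparison, the 5 genes most like the members' mean profile, *UPS1*, *KAR2* and, from the list of marker genes, *LYS2* and *MET17*, named after their values were seen. Alternatives were DESeq2 1.42.0 or its size factors within edgeR, no TMM factors, another filter (none, or a minimum of 10 counts per library), a joint fit of all 12 libraries, a replicate block and leaving out each library. Leaving out the 2 libraries that stood farthest from their groups together was added after the data were seen. The proteome and other assays were not analysed here.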

Additional observations from a re-analysis of the deposited data

Results flagged for a closer look

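For 5 of the 10 genes the genotypes differed in their response to tunicamycin by the interaction test of edgeR over 12 libraries, all 5 with a smaller response in *ups1*Δ cells. Of all 5828 genes tested 3849 were called, which is 33.2% of the genes tested in this direction and 32.9% in the other, so that differing responses were not particular to these genes. The response in *ups1*Δ cells minus that in wild-type cells was −0.79 on the log2 scale for *USA1* (SE 0.14, adjusted p = 0.000181), −0.54 for *YOS9* (SE 0.15, adjusted p = 0.00540), −0.53 for *UBX2* (SE 0.11, adjusted p = 0.000483), −0.40 for *DFM1* (SE 0.16, adjusted p = 0.0370) and −0.37 for *HRD3* (SE 0.13, adjusted p = 0.0264). Without replicate 3 of untreated *ups1*Δ and replicate 2 of treated wild-type cells together, an alternative chosen after seeing the data, these were −0.65, −0.42, −0.47, −0.33 and −0.23, and the calls for *DFM1* (adjusted p = 0.104) and *HRD3* (adjusted p = 0.0890) were lost.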

How the results depend on the processing

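The 8 rises in wild-type cells and the 5 rises in *ups1*Δ cells with tunicamycin kept their number under each alternative, except for 7 rises in *ups1*Δ cells without replicate 3 of untreated *ups1*Δ cells and, with library size only, 6 in *ups1*Δ and 10 in wild-type cells. Of all genes tested, 1040 of 5727, 1420 of 5700 and 3491 of 5785 were called higher in these fits, in the same order. With DESeq2, 1 gene was higher between untreated genotypes and 3 were lower in the interaction. Its size factors in edgeR gave 1 higher in the interaction (*MNL1*). Scaling by library size only gave 0 lower with tunicamycin in wild-type cells, where 1218 of all 5785 genes tested were lower. The same scaling gave 8 lower between treated genotypes (2967 of all 5771 genes) and 8 lower in the interaction (2927 of all 5828 genes). It moved the median of all genes to 0.57 (tunicamycin in wild type), 0.11 (in *ups1*Δ), −0.32 (treated genotypes) and −0.42 (interaction), and the share of lower genes among those called from 48.4% to 25.9%, from 44.0% to 22.5%, from 50.7% to 70.6% and from 50.2% to 70.6%. It turned *DFM1* between untreated genotypes (0.0012), *CUE1* (0.52) and *MNL1* (0.28) in wild-type cells, *CUE1* in *ups1*Δ cells (0.058) and between treated genotypes (−0.19), and *MNL1* in the interaction (−0.099). *CUE1* in wild-type cells was 0.0079 with at least 10 counts in every library and 0.018 with all 12 libraries in one fit. Leaving out each library gave 1 to 2 higher between untreated genotypes, 0 to 1 lower in wild-type cells, and 0 to 1 higher and 3 to 6 lower in the interaction. Signs turned for *DER1* (−0.028 to 0.27) and *UBC7* (−0.042 to 0.21) between untreated genotypes, *CUE1* in wild-type cells (−0.068 to 0.025), *YOS9* (−0.00098 to 0.15) and *MNL1* (−0.028 to 0.12) in *ups1*Δ cells, *DER1* (−0.21 to 0.14) and *HRD1* (−0.25 to 0.0048) between treated genotypes and *DER1* in the interaction (−0.32 to 0.086). Without both libraries named above, *DER1* was 0.18 and 3 genes were lower in the interaction. The causes were not tested. Deviations from the group mean correlated from −0.24 to 0.11 between same-numbered replicates and from −0.22 to 0.26 between different-numbered ones. Between genotypes alone these ranges were 0.0027 to 0.11 and −0.22 to 0.10. The labels do not pair the replicates. The replicate block kept 5 lower in the interaction, and over all genes it called 1138 in place of 1546 with tunicamycin in *ups1*Δ cells.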
